A study of Mus musculus with 4 samples.

Results

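Hoxa9, Hoxa10, Hoxa11 and Hoxa13 are the posterior genes of the HoxA cluster, and their accessible chromatin was described here in mouse forelimb buds at E9.5 and E10.5. An accessible region was assigned to these genes when its centre lay nearest a transcription start of 1 of them among all protein-coding starts, or within 2.5 kb of such a start. By this rule 7 of 42613 regions at E9.5 and 7 of 46765 regions at E10.5 belonged to the 4 genes. Chromatin was profiled by ATAC-seq, in which a transposase inserts sequencing adapters into open DNA, in wild-type NMRI mouse embryos at both stages. Each stage had 2 replicates, each being the forelimb bud pair of 1 embryo, and the authors merged them into 1 list of regions per stage. E9.5 forelimb buds (E9.75 in the protocol) kept some adjoining trunk, whereas none is named at E10.5, so stage and trunk tissue cannot be told apart. A tissue label of the E10.5 samples adds hindlimb buds to the forelimb buds that the other labels name.

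HOX proteins are homeodomain transcription factors that pattern the body axis and, later, the limbs. The genes lie along their cluster in the order in which they act, and the members nearest the 5′ end are switched on last and in the most posterior or distal cells. In the limb, Hoxa9 and Hoxa10 contribute to the proximal segments, Hoxa11 to the middle segment (the zeugopod), and Hoxa13 to the hand and foot plate (the autopod), where it is required together with Hoxd13 for digits. All 4 genes are transcribed from the minus strand of chromosome 6, with Hoxa9 next to Hoxa7 and Hoxa13 at the 5′ end of the cluster, before Evx1.

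The score of a region is 10 times the negative log10 of its best MACS p-value over the replicates. It grows with sequencing depth, which is unknown for these lists, and is not divided by the width of a region. Scores were therefore ranked within their own list, and a percentile is the share of all regions of that list that scored lower. Both replicates stand behind a single list, so the spread between embryos is unknown and the stages were compared without a test. Forelimb mesenchyme markers were in place, with a region within 2.5 kb of a start for 6 of 6 genes (Prrx1, Tbx5, Fgf10, Hand2, Msx1 and Twist1) at both stages. That of Tbx5, which marks the forelimb field, was weak (percentile 4.11 at E9.5, 1.36 at E10.5). All 4 trunk markers (Meox1, Pax3, Pax1 and Myf5) also had 1 at both stages. The ectoderm genes Fgf8 and Krt18 had 1 at E9.5 only, and Trp63 had none.

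The DNA beside 1 start of each gene and in the middle of the Hoxa13 regions found at a single stage is shown first, because 5 of these 6 windows were covered differently by the lists, with the Hoxa10 window, covered at both stages, beside them. Each window holds 240 bases of mm9, read on the minus strand from 5′ to 3′, and the first 4 end at the base before the transcription start. Capitals mark matches on either strand to 10 short motifs. They were AGGNGGC for the core of the CTCF site, CAATAAA as a first and TCGTAAA as another motif of posterior HOX proteins, and TAATTA for the homeodomain core. TGACAG stood for MEIS and PKNOX factors, GTCTAGAC for the SMAD palindrome and GGCGCC for a GC-rich SMAD site. CCACCCA was taken as the GLI core, CATCTG as an E-box and TATAAA as the TATA box.
Hoxa9, chr6:52177370-52177609: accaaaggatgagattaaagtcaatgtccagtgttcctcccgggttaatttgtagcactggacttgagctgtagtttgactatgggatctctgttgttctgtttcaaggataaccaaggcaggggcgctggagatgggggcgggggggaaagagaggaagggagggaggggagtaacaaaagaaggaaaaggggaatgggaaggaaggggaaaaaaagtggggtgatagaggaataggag
Hoxa10, chr6:52184939-52185178: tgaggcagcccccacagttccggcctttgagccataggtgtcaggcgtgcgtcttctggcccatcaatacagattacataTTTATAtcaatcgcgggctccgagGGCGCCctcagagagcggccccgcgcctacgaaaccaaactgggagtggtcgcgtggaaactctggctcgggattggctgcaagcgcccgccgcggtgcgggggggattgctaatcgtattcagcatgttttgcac
Hoxa11, chr6:52196214-52196453: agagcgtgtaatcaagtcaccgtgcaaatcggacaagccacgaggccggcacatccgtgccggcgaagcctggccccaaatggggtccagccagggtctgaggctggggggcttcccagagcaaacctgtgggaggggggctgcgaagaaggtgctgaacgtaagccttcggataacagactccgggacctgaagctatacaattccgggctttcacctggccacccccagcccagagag
Hoxa13, chr6:52210875-52211114: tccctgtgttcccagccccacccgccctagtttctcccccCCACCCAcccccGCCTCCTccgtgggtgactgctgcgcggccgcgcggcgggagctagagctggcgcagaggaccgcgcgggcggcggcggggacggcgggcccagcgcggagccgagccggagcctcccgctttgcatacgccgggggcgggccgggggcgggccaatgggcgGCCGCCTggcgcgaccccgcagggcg
Downstream of Hoxa13, chr6:52207095-52207334: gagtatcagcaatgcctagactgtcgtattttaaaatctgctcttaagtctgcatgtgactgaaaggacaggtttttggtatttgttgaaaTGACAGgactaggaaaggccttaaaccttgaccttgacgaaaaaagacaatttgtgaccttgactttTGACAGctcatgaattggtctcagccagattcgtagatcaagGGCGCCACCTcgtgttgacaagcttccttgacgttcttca
Upstream of Hoxa13, chr6:52220906-52221145: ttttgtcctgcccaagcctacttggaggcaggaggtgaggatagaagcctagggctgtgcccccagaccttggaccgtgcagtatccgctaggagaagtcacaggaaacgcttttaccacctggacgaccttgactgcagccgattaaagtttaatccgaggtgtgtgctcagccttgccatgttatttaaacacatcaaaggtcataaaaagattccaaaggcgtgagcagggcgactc

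The coverage of the windows by each list follows in part from how they were chosen, and is given as a description only. Those in the middle of the Hoxa13 regions found at a single stage could be covered at that stage only. For Hoxa11 the outermost start was used, and its other annotated start lay in a region at both stages. Of the 240 bases beside the Hoxa10 start, 240 lay in a region at both stages. Beside the Hoxa9 start the E9.5 list covered 64 bases and the E10.5 list 240. The Hoxa11 window was covered at E10.5 only, by 240 bases against 0, and the Hoxa13 window at E9.5 only, by 240 against 0. Downstream of Hoxa13 all 240 bases were in an E9.5 region, and upstream of Hoxa13 all 240 were in an E10.5 region.

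Hoxa9 (ENSMUSG00000038227.7, chr6:52173099-52181088) held the widest and the highest-scoring of these regions at each stage. At E9.5 the regions nearest its starts were chr6:52173870-52177433, with 3564 bp and a score of 521.26, and chr6:52177880-52181291, with 3412 bp and a score of 182.09. At E10.5 they were chr6:52175415-52178828, with 3414 bp and a score of 1007.68, and chr6:52180339-52181413, with 1075 bp and a score of 240.76. Over the whole lists the median width was 1100 bp (E9.5) and 1000 bp (E10.5). The leading region moved from percentile 67.1 at E9.5 to 86.2 at E10.5, 19.1 points higher. Of all shared E9.5 regions, 15% had a larger shift towards E10.5. The E10.5 region joined the pair of E9.5 regions across the gap between them and reached into both. It was therefore the partner of both, and the weaker E9.5 region, at percentile 37.1, had a shift of 49.1 points. That value rests on taking the highest-scoring partner. The weaker E9.5 region also overlapped chr6:52180339-52181413, by 953 bp. With this E10.5 region, at percentile 49.9, the shift was 12.8 points.

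Of the Hoxa9 body, 3718 bp were open at both stages, 3075 bp at E9.5 only and 446 bp at E10.5 only. The first E9.5 region took in all 813 coding bases of Hoxa9, of which 577 (71.0%) were in a region at E10.5. The second E9.5 region contained Mir196b (chr6:52180080-52180164), whose microRNA is known to target Hox transcripts, and no E10.5 region reached it. Of the 4 annotated Hoxa9 starts, 4 lay in an E9.5 region and 3 in an E10.5 region, and the start that dropped out, at 52180264, was 75 bp from the nearest E10.5 region. In the 2.5 kb upstream of the gene, which run into the 3′ part of Hoxa10, coverage was 203 bp at E9.5 against 1273 bp at E10.5. Of the latter, 948 bp were a single region in Hoxa10 exons with a score near the floor of its list (percentile 1.25).

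**Figure D1:**
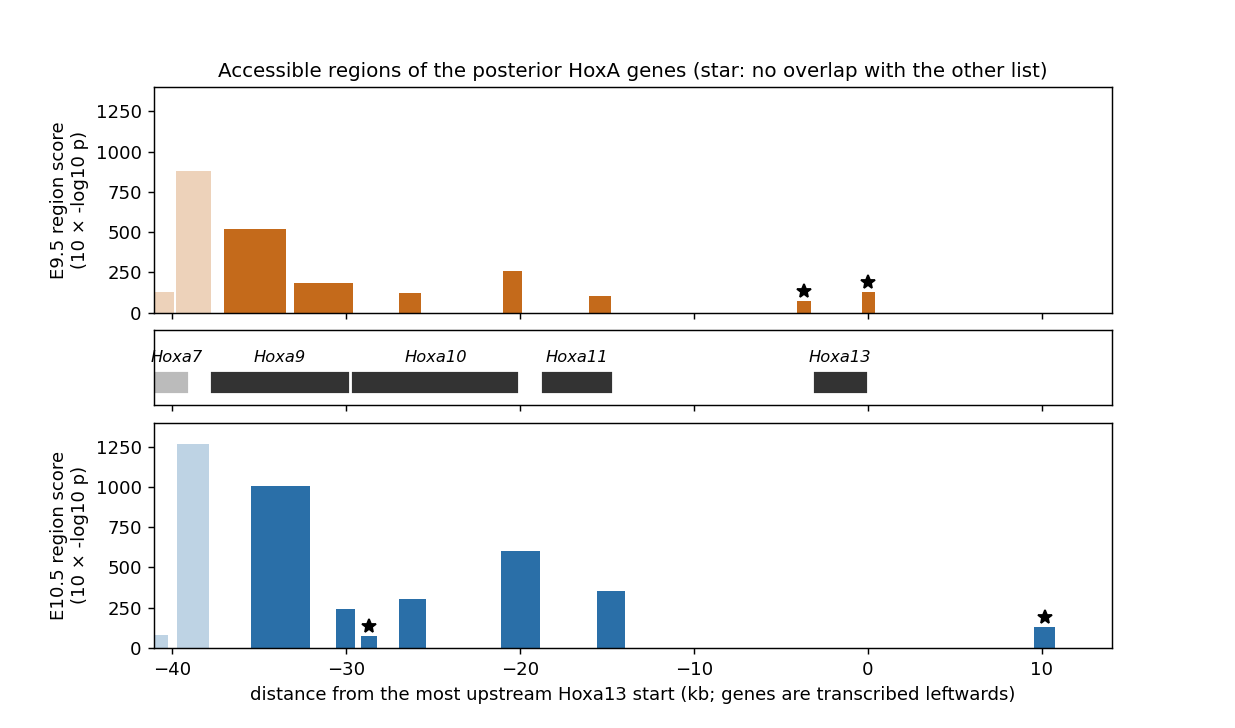
The map plots region scores (10 times the negative log10 p, vertical) against the distance in kb from the most upstream Hoxa13 start, with E9.5 above and E10.5 below the gene bodies. Dark bars are regions of the 4 posterior genes drawn to their width, pale bars are neighbouring Hoxa7 regions, and stars mark the 2 regions per stage without overlap in the other list. Every dark E10.5 bar without a star is higher than the E9.5 bar it overlaps, as over Hoxa11 (353.52 against 101.63), and around the Hoxa13 start E9.5 alone has a bar.

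Hoxa10 (ENSMUSG00000000938.9, chr6:52181196-52190853) had a region over its main inner start and another over its outer starts at each stage. The inner start was in chr6:52183947-52185211 at E9.5, with 1265 bp and a score of 123.04, and in chr6:52183930-52185465 at E10.5, with 1536 bp and a score of 301.68. The percentile went from 18.0 to 57.6, a shift of 39.6 points that 4.92% of all shared E9.5 regions exceeded. Each of these regions covered 976 of the 1258 coding bases of Hoxa10.

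The outer Hoxa10 starts were in chr6:52189916-52191027 at E9.5, with 1112 bp and a score of 260.13. At E10.5 they were in chr6:52189768-52192042, with 2275 bp and a score of 602.2. The E9.5 region stood in the middle of its list, at rank 21321 from the top, and the E10.5 region at percentile 75.8, a shift of 25.9 points. The E10.5 region spanned 1189 of the 1253 bp between the Hoxa10 and Hoxa11 bodies (94.9%), and the E9.5 region 174 bp (13.9%). A further E10.5 region, chr6:52181734-52182681, lay in the 3′ part of Hoxa10 and was wholly exonic, with 174 coding and 774 untranslated bases. It scored 73.63, at percentile 1.25, and overlapped no E9.5 region. Over all annotated Hoxa10 starts, 3 of 5 were inside a region at each stage.

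Hoxa11 (ENSMUSG00000038210.9, chr6:52192107-52196213) had 1 region per stage. Its change in rank was the largest among the 3 genes with a promoter region at both stages. At E9.5 it was chr6:52194828-52196101, with 1274 bp, a score of 101.63 and percentile 7.44. At E10.5 it was chr6:52195320-52196914, with 1595 bp, a score of 353.52 and percentile 62.3. The shift was 54.8 points, and 1.95% of all shared E9.5 regions shifted further towards E10.5. The regions had 782 bp in common, 61.4% of the E9.5 region and 49.0% of the E10.5 region.

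The Hoxa11 region also lay differently on the gene. At E9.5 it ended 112 bp short of the outermost start, and covered 709 of 939 coding bases (75.5%). At E10.5 it included both annotated starts and 701 bp of the 2.5 kb upstream, with 399 coding bases (42.5%). The antisense gene Hoxa11as (chr6:52194392-52199798) overlaps this stretch from the other strand, and ATAC-seq does not tell which of them an open region belongs to.

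Hoxa13 (ENSMUSG00000038203.11, chr6:52207693-52210874) had a promoter region, meaning 1 within 2.5 kb of a start, at E9.5 only. This region, chr6:52210530-52211287, was 758 bp wide, scored 128.38 at percentile 20.4, and held all 3 annotated starts with 235 of 1140 coding bases (20.6%). At E10.5 the nearest region was 9544 bp from the most upstream start. A promoter region at E9.5 only was found for 1 of the 4 posterior genes, against 3.75% of all 22380 protein-coding genes. At E10.5 only it was found for 0 of 4, against 1.12%, and the other 3 genes had 1 at both stages.

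A second E9.5 region near Hoxa13, chr6:52206821-52207607, lay between Hoxa11 and Hoxa13, 3.58 kb from the nearest start and just past the 3′ end of Hoxa13. It was 787 bp wide and scored 74.05, at percentile 1.13 and close to the lowest score of the list, 60.52. At E10.5 the region nearest Hoxa13 was chr6:52220418-52221632, outside genes and 10.2 kb upstream, with 1215 bp, a score of 129.76 and percentile 22.1. The noncoding gene Gm15053 (chr6:52212769-52217597) lies between Hoxa13 and this E10.5 region and has the nearer start. With starts of all gene types the E10.5 region left the set, and 6 remained at that stage. None of these 3 regions overlapped the other list. A region missing from a list did not pass the authors' thresholds, which does not show that the site was closed.

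The total number of regions was the same at both stages, while their ranks and places differed. In the higher-scoring 50% of each list there was 1 region at E9.5 against 4 at E10.5, and 1 gene against 3 had a promoter region. These counts hang on the exact cut. The outer Hoxa10 region at E9.5 just missed it, with a score of 260.13 against a list median of 260.35. So did the second Hoxa9 region at E10.5, at percentile 49.9. At each stage 2 of 7 regions (28.6%, 95% Wilson interval 8.22 to 64.1%, counting error only) overlapped no region of the other stage, against 29.9% of all E9.5 and 35.0% of all E10.5 regions. The share for the posterior HoxA genes was thus near that of the lists. Of the shared regions, 5 of 5 ranked higher at E10.5, whether counted from the E9.5 or from the E10.5 list. Over the lists this was so for 50.3% of the shared E9.5 and 48.9% of the shared E10.5 regions. With the highest-scoring partner of each region, the shifts ran from 19.1 to 54.8 points (median 39.6) for the E9.5 regions. For the E10.5 regions they ran from 12.8 to 54.8 points (median 25.9). Over all shared E9.5 regions the median shift was 0.0874 points, with most between -24.4 and 27.1 points (the 10th and the 90th percentile).

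Most posterior HoxA regions ranked low for promoters. Their median percentile was 20.4 for E9.5 against 57.6 for E10.5. With each region ranked only among promoter-proximal regions (centre within 2.5 kb of a start) or only among distal regions, these medians were 7.31 and 28.7.

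Covered bases were fewer at E10.5 than at E9.5 over the full lists, and more in the higher-scoring 50% of each list (10615 bp against 5548 bp). In the interval from Hoxa9 to Hoxa13 with 2.5 kb on each side (42776 bp), E9.5 regions covered 14534 bp (34.0%) and E10.5 regions 12670 bp (29.6%), with 8907 bp in common. The bodies of Hoxa9 and Hoxa11 were covered less at E10.5, by 52.1% against 85.0% and by 21.8% against 31.0%. That of Hoxa10 was covered more, by 39.2% against 23.8%. Upstream, the 3 genes next to each other had more open bases at E10.5, with 1273 against 203 bp for Hoxa9, 1189 against 174 bp for Hoxa10 and 701 against 0 bp for Hoxa11. Of the 1273 bp of Hoxa9, 948 bp came from chr6:52181734-52182681, the E10.5 region in Hoxa10 exons at percentile 1.25. For Hoxa13 the upstream bases were 413 bp (E9.5) and 0 bp (E10.5). The longest stretch without a region was 10719 bp in the E9.5 list, between Hoxa11 and Hoxa13. In the E10.5 list it was 16460 bp, from the Hoxa11 start past Hoxa13 to the end of the interval.

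**Figure D2:**
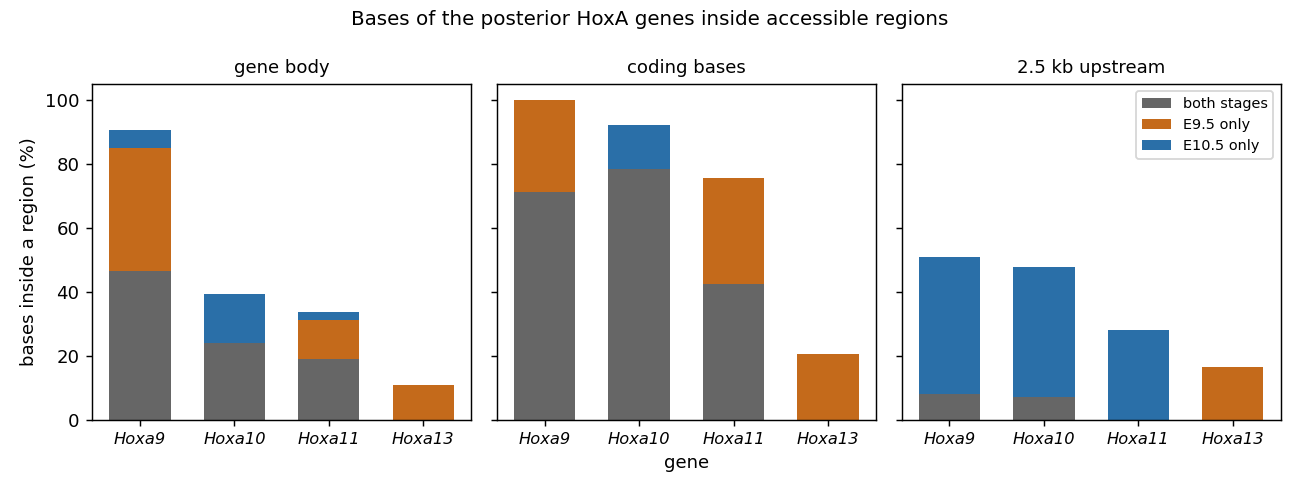
Bars give the percentage of bases inside a region for the gene body, the coding bases and the 2.5 kb upstream of each gene, split into bases covered at both stages, at E9.5 only and at E10.5 only. The full height of the gene body bars, both stages joined, goes down from Hoxa9 to Hoxa13, and the upstream bars of Hoxa9, Hoxa10 and Hoxa11 are mostly covered at E10.5 only. For Hoxa9, most of these upstream bases (948 bp) lie in the E10.5 region at percentile 1.25.

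Genes of the anterior HoxA cluster, Hoxa2 to Hoxa7, were set beside the posterior ones. They had 15 regions at E9.5 and 13 at E10.5, and 2 of 10 shared E9.5 regions ranked higher at E10.5, with a median shift of -27.5 points (range -65.2 to 12.8). Among the E10.5 regions of these genes, 13 of 13 overlapped an E9.5 region and 2 of 13 ranked higher. From Hoxa2 to Hoxa7 the gene bodies and the bases between them were covered to 69.8% in the E9.5 list, against 29.9% in the E10.5 list. The highest-scoring promoter region ranked lower at E10.5 for 5 of these 6 genes, with Hoxa4 the furthest (percentile 91.3 against 26.1), and higher for Hoxa7 (77.6 against 90.2). For the posterior genes it ranked higher for 3 of the 3 that could be compared. The groups also differed in starting rank, with a median E9.5 percentile of 60.8 for the anterior and 20.4 for the posterior regions. The difference between the anterior and posterior genes was not tested, since each list offers a single value per region.

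At the border of both groups, shifts of either sign were found. The Hoxa7 regions had shifts of 2.46, -16.8 and 12.8 points in the order from Hoxa6 to Hoxa9. The last of them, chr6:52171135-52173118 at E9.5 and chr6:52171203-52172997 at E10.5, lay just outside the rule, 4.02 and 4.05 kb from the nearest Hoxa9 start and closer to a start of Hoxa7. It scored 882.67 (E9.5) and 1269.23 (E10.5), at percentiles 77.5 and 90.2. On the other side, the E9.5 region chr6:52240797-52241683 was nearest Evx1, 30.4 kb from Hoxa13, and had a score of 125.74 and no overlap. A shared region nearer Evx1 had a shift of -27.5 points.

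**Figure D3:**
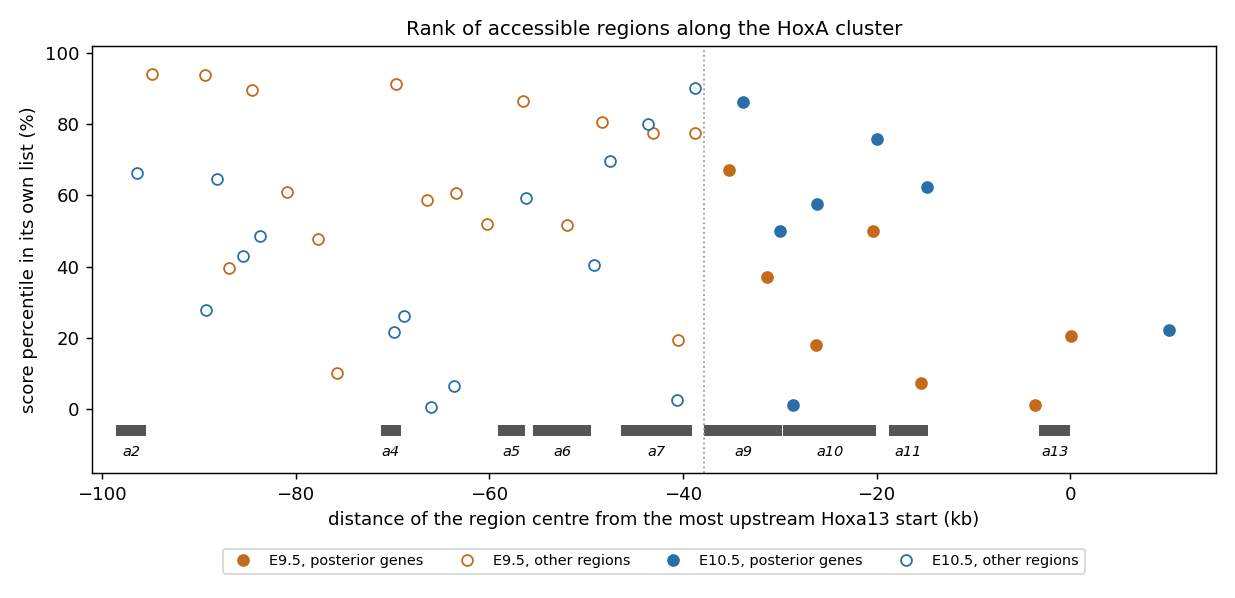
Each point is an accessible region, plotted by the distance of its centre from the most upstream Hoxa13 start (kb) and by its score percentile within its own list, with gene bodies from Hoxa2 to Hoxa13 below (Hoxa3, which spans several other genes, is not drawn) and a dotted line at the Hoxa9 end. Left of Hoxa7 the E9.5 points (orange, open) lie mostly above the E10.5 points (blue, open), and over Hoxa9, Hoxa10 and Hoxa11 each filled E10.5 point lies above a filled E9.5 point it overlaps, apart from the E10.5 point at percentile 1.25, which overlaps none.

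The trunk markers moved with the stage as well. Their highest-scoring promoter region ranked lower at E10.5 for 3 of 4 genes, by a median of -24.6 points over the 4 (range -32.1 to 9.1), against 2.25 points over the 6 limb mesenchyme markers (range -2.75 to 13.7). Their part in the values of the HoxA genes was not tested.

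Paralogues of the same groups in the other Hox clusters gave a mixed picture. Of the 12 posterior genes of HoxB, HoxC and HoxD, 8 had a promoter region at both stages, 3 at E9.5 only (Hoxb9, Hoxb13 and Hoxc9) and 1 at neither (Hoxc12). Where both stages had 1, it ranked higher at E10.5 for 6 and lower for 2, with a median shift of 6.4 points (range -13.7 to 26.5). HoxD, whose genes act with the posterior HoxA genes in the limb, ranked higher at E10.5 for Hoxd9, Hoxd10 and Hoxd11, as did the HoxA genes of the same groups. Hoxd9 stood at percentile 76.7 at E9.5 and 87.0 at E10.5, Hoxd10 at 69.7 and 80.1, and Hoxd11 at 49.8 and 61.8. Hoxd12, which has no HoxA counterpart, stood at 27.6 and 54.1.

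Hoxd13, the partner of Hoxa13 in the autopod, kept its promoter region but ranked lower at E10.5, at percentile 50.2 against 63.9. In HoxC the values of Hoxc10 (61.1 and 62.4) and Hoxc11 (36.8 and 39.3) were close, and Hoxc13 ranked lower at E10.5 (76.9 and 69.0). Over all 12 paralogues the shared E9.5 regions had a median shift of 2.48 points, with 7 of 11 higher at E10.5.

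**Figure D4:**
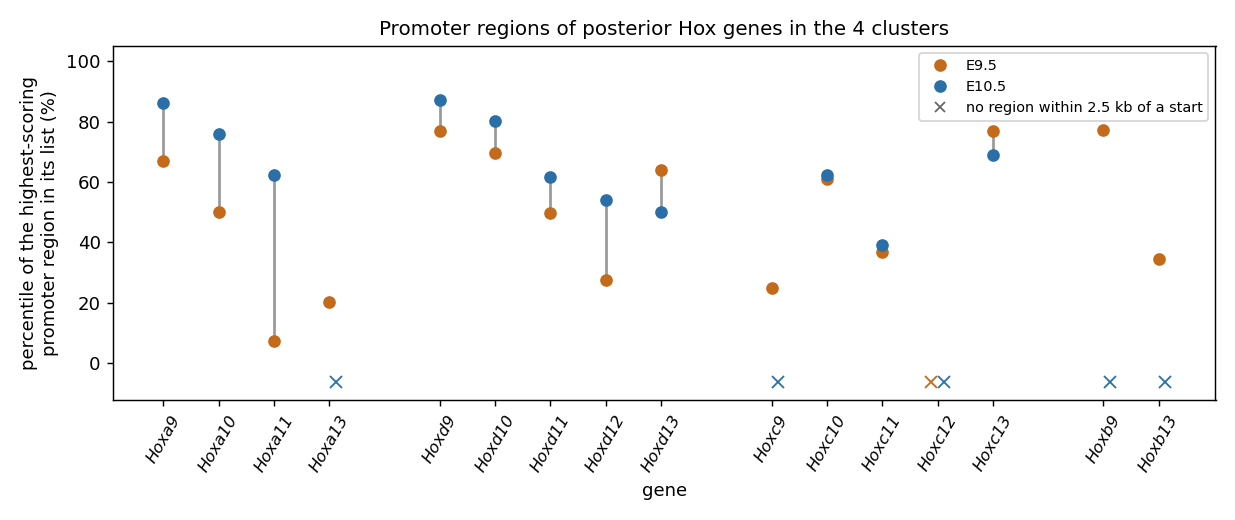
Points give the score percentile (vertical) of the highest-scoring region within 2.5 kb of a start of each posterior Hox gene at E9.5 (orange) and E10.5 (blue), joined by a line where both exist, and crosses mark a stage without such a region. The line is longest for Hoxa11, from 7.44 to 62.3, and Hoxa13, Hoxc9, Hoxb9 and Hoxb13 have an E9.5 point only.

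Genes that work with or around the posterior HoxA genes were described by the same measure. The cofactors Meis1, Meis2 and Pbx3, which bind DNA together with HOX proteins, had promoter regions at both stages, with shifts from -8.3 to -0.4 points. Of the cofactors described, Meis2 had the most regions (21 at E9.5, 20 at E10.5) and Pbx2 the fewest (1 and 0), with its promoter region at E9.5 only. Hand2, which acts upstream of posterior Hox genes and Shh in the limb bud, ranked at 77.7 and 91.4, and Zbtb16, a known regulator of Hox genes in the limb, at 81.2 and 50.9. Over the 8 genes known to act upstream or downstream in limb buds, 5 ranked higher at E10.5, 2 lower, and Aldh1a2, which makes retinoic acid, had a promoter region at E9.5 only. At E10.5 the BMP ligand gene Bmp2 had the most regions of these genes (30, of which 21 had no E9.5 overlap) and Aldh1a2 the fewest (2). Around the cluster, Hibadh, Tax1bp1, Jazf1 and Skap2 ranked lower at E10.5, with shifts from -18.4 to -0.2 points, and Snx10 had a promoter region at E9.5 only. Jazf1, beyond Evx1 on the Hoxa13 side, was nearest to 3 regions at E9.5 and 14 at E10.5, of which 12 had no E9.5 overlap. Evx1 itself had no region within 2.5 kb of a start at either stage.

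In sequence, the posterior HoxA regions had a higher median ratio of observed to expected CpG than the lists as a whole. At E10.5 this median was below that of promoter-proximal regions. Of the members, 6 of 7 at each stage were promoter-proximal, whereas the lists also hold distal regions. In the central 240 bp, the ratio of observed to expected CpG had a median of 0.861 over the E9.5 members and 0.508 over the E10.5 members, against 0.375 and 0.341 over all regions and 0.747 and 0.764 over the promoter-proximal ones. GC content had medians of 57.9% and 55.0%, against 54.2% and 50.8% over all regions and 63.8% over the promoter-proximal ones at both stages. Of the windows shown, the one beside the Hoxa13 start had the highest GC content, 80.0%, with 34 CpG, and the one downstream of Hoxa13 the lowest, 42.5%. The fewest CpG, 3, were beside the Hoxa9 start.

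Matches to the short motifs were few. The CTCF core was in the central 240 bp of 3 of 7 E9.5 members and 2 of 7 E10.5 members, and in 30.2% and 27.1% of all such windows. The GC-rich SMAD site was in 4 of 7 and 0 of 7, against 11.1% and 9.48% of all windows and 20.6% and 20.7% of promoter-proximal ones. These counts hold for the central 240 bp only and do not show that E10.5 regions lack the site. The GC-rich SMAD site of the Hoxa10 window shown lay inside an E10.5 region, away from its central 240 bp. The posterior HOX motifs, the homeodomain core, the SMAD palindrome and the GLI core were in 0 of 7 at both stages. They were rare in all windows too. At E9.5 their shares ran from 0.23% (SMAD palindrome) to 7.17% (GLI core), and at E10.5 from 0.246% (SMAD palindrome) to 7.15% (homeodomain core). At E10.5 the E-box was in the leading Hoxa9 region and the TATA box in the outer Hoxa10 region, against 21.3% and 10.6% of all windows. Beside the inner Hoxa10 start the window shown had 1 match to the TATA box motif and 1 GC-rich SMAD site. The TATAAA match was on the strand opposite to the gene. At least 1 match to these motifs was held by 11.8% and 10.9% of the windows of equal length upstream of all 22380 protein-coding genes. Beside the Hoxa13 start the window had 2 CTCF cores and 1 GLI core. At least 1 match was held by 26.4% and 7.76% of the upstream windows, which were not matched for GC content. Downstream of Hoxa13 the window carried the MEIS and PKNOX motif 2 times, and 17.7% of all E9.5 windows held it at least 1 time. It also had 1 CTCF core that shares letters with 1 GC-rich SMAD site. The Hoxa9 and Hoxa11 starts and the window upstream of Hoxa13 had no match to any of the 10 motifs.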

How the data were processed

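ATAC-seq was analysed from the deposited lists of accessible regions, 1 per stage. Per the labels and the study's methods, the authors aligned reads to mm9 with Bowtie 1.1.0, used MACS 1.4 on every replicate with no control library, and merged the 2 replicates per stage by MSPC. The deposited score was computed by the authors as 10 times −log10 of the best p-value from MACS, and ran from 60.52 to 3233.06 at E9.5 and from 60.44 to 3230.05 at E10.5. Read totals and values per replicate were not used here, so depth is unknown.

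Regions were annotated with GENCODE vM1 on NCBIM37, the assembly of mm9, and 0 of the regions extended beyond the chromosome ends. This annotation held 22380 protein-coding genes with 70064 starts. Distances were taken from the region centre, and regions were shared when they overlapped by at least 1 bp. Where a region had several partners, the highest-scoring was used. In counts per gene, a region within 2.5 kb of starts of several genes was counted for each gene. By such counts Hoxa9 had 3 and Hoxa10 4 regions at E10.5. In the text on the 4 posterior genes, each region is described under the gene with the nearest start. All regions of the 4 genes were named, and other lists gave the genes with a promoter region at 1 stage only and those with the most and fewest regions. Other genes, such as Zbtb16, were named after their values were seen. Some genes of the lists are not reported here. The genes, lists and motifs were chosen with earlier results of these data known. Python 3.11.15, pandas 2.3.3, numpy 2.4.6 and scipy 1.17.1 were used, and the interval functions were tested on simulated data. Shares carry 95% Wilson intervals. No test between stages was made.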

Additional observations from a re-analysis of the deposited data

How the results depend on the processing

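The alternatives concerned the overlap, the score threshold, the measure of distance, the set of starts, the promoter distance and the class of regions in which a score was ranked. No paired analysis was possible because the 2 replicates of a stage were merged before deposit, and leave-one-out fits were not run for that reason. The alternatives for the direction of the ranks were chosen after seeing the data. Of 50 alternatives, 38 left a value within its interval or a count within 1.5 times, 12 moved it further and 0 reversed the sign of a single value. For the median percentiles this says little. Their interval spanned the lowest to the highest of the 7 regions, 1.13 to 67.1 (E9.5) and 1.25 to 86.2 (E10.5). Falls from 20.4 to 7.31 and from 57.6 to 28.7 thus counted as within it. The order of the stages turned around for covered bases and for genes with a promoter region when the lower-scoring 50% of both lists was removed.

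In that setting there remained by construction 1 region of the posterior HoxA genes in the E9.5 list and 4 in the E10.5 list. The outer Hoxa10 region at E9.5 and the second Hoxa9 region at E10.5 fell just below the cut. The share without overlap was then 0% and 75%. The covered bases of the interval, which include a Hoxa7 region at each stage, were 5548 (E9.5) and 10615 (E10.5), against 14534 and 12670 over the full lists. A promoter region was left for 1 of the 4 genes in the E9.5 list and 3 in the E10.5 list, against 4 and 3. With the higher-scoring 50% of a list set against the whole other list the share was 0% at both stages. Reciprocal overlap of at least 50% gave 71.4% of regions without a partner in both lists, and 2 of the 2 remaining pairs ranked higher at E10.5. With the centre inside the other region this was so for 4 of 4 pairs, and with raw scores or with ranks among promoter-proximal or distal regions for 5 of 5.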
